A study of Homo sapiens with 4 samples.

Results

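The genes described here are 10 members of the canonical Wnt pathway that take part in its feedback control or carry its signal: LGR5, LGR4, ZNRF3, RNF43, AXIN2, AXIN1, TBX3, NKD1, CTNNB1 and TCF7L2. They were chosen by symbol, with earlier results of these data known, and all 10 were found among the 26603 genes of the deposited table. Messenger RNA was sequenced from PLC8024, a human liver tumour cell line, in 2 libraries labelled drug and 2 labelled control. The labels give neither the drug's name nor its dose or duration, and nothing in them ties a library to a culture of its own, so each p-value reflects the spread among these 4 libraries alone, which may be technical. Beyond the drug no genotype or other agent is labelled for either group. Each gene's level is in FPKM, fragments per kilobase of exon scaled to library depth, so that levels of different genes can be set side by side.

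In canonical Wnt signalling a Wnt ligand joins a Frizzled receptor to an LRP co-receptor, which stops a cytoplasmic complex built on axin from marking beta-catenin for destruction. Beta-catenin then enters the nucleus and binds TCF and LEF factors at target genes. Several targets act back on the pathway: ZNRF3 and RNF43 remove Frizzled from the cell surface, AXIN2 rebuilds the destruction complex and NKD1 binds Dishevelled. R-spondins, through LGR4 and LGR5, clear ZNRF3 and RNF43 from the membrane and so strengthen the signal. In mouse liver this pathway is most active in the hepatocytes around the central vein, where Lgr5, Axin2 and Tbx3 are expressed.

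Recovered gene reads ran from 38685856 to 40279560 in the drug libraries and from 28526098 to 38611635 in the control libraries. Of 10 hepatocyte markers 8 averaged at least 1 FPKM. APOB stayed at 0.0384 FPKM or below and TTR at 0.0238 FPKM or below in every library, and the alpha-fetoprotein gene AFP had 0.419 and 0.436 FPKM with drug against 0.449 and 0.372 FPKM in control. The albumin gene ALB had 1.31 and 1.32 FPKM with drug, against 3.15 and 3.23 FPKM in control. GPC3, the glypican gene of fetal liver and liver tumours, fell to 80.2 FPKM with drug, against 109 FPKM in control (limma adjusted p = 0.00507). Summed hepatocyte markers were 546 to 576 FPKM in drug libraries and 822 to 823 FPKM in control libraries. The fibrinogen gene FGB, at 285 FPKM with drug and 552 FPKM in control (limma adjusted p = 0.00104), differed by about as much as the sum did. Other hepatocyte markers went both ways. APOA1, APOH and TF fell, to 14.8, 13.1 and 77.9 FPKM with drug from 17.3, 16.9 and 90.6 FPKM in control (limma adjusted p = 0.0397, 0.0231 and 0.0109). APOA2 had 133 FPKM with drug and 109 FPKM in control, and HNF4A had 25.5 FPKM with drug and 22.4 FPKM in control, both higher (limma adjusted p = 0.0246 and 0.0210). SERPINA1 averaged 10.4 FPKM with drug and 10.3 FPKM in control (limma adjusted p = 0.918). The part of these markers in the results below was not tested. None of 6 measured stellate or fibroblast markers and none of 2 measured leukocyte markers averaged 1 FPKM, and of 4 endothelial markers PECAM1 alone did, at 2.16 FPKM with drug and 4.38 FPKM in control. In bulk libraries like these, fewer cells expressing a gene and less RNA per cell cannot be told apart.

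With drug, 5 of the 9 members that could be tested were higher and none was lower. Because the members were chosen with earlier results known, that count is descriptive, and its distance from the share of all genes was not tested. LGR5 changed most, at 2.34-fold its control level. ZNRF3 reached 1.53-fold, TBX3 1.34-fold, RNF43 1.23-fold and CTNNB1 1.19-fold. AXIN2, the most widely used readout of the pathway, had a mean 1.54-fold its control level on few reads and did not pass the test. The test was limma on log2(FPKM + 1) over the 11227 genes that averaged 1 FPKM or more in either group, with Benjamini-Hochberg adjustment over all of them and a threshold of 0.05. It called 7.78% of tested genes higher and 6.02% lower, 873 and 676 genes, whereas TMM-scaled FPKM gave 549 higher and 724 lower. On recovered reads edgeR called 8.37% of genes higher (940, with 1233 lower) and 5 members, and DESeq2 called 7.03% higher (774, with 1109 lower) and 4 members. The authors' deposited table gives 845 genes as higher at an adjusted p under 0.05 and 1073 as lower. Those are 3.18% and 4.03% of all 26603 genes, not of the genes that passed the filter. The members among the higher are LGR5, ZNRF3, TBX3 and CTNNB1. The authors' own change label is UP for LGR5 alone and STABLE for every other member. Log2 fold changes below are drug over control on that FPKM + 1 scale, which understates changes of low genes, and values written as -fold are ratios of mean FPKM. The median log2 fold change was 0.25 over the 9 tested members and 0.04 over all tested genes, a median that became 0.01 with TMM-scaled FPKM. NKD1 lay below the filter on low values and was not tested. Both drug libraries lay above both control libraries for 8 of the 9 tested members, a pattern seen in 40.3% of all tested genes. AXIN2, among the 8, passed the filter through its drug mean alone.

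**Figure D1:**
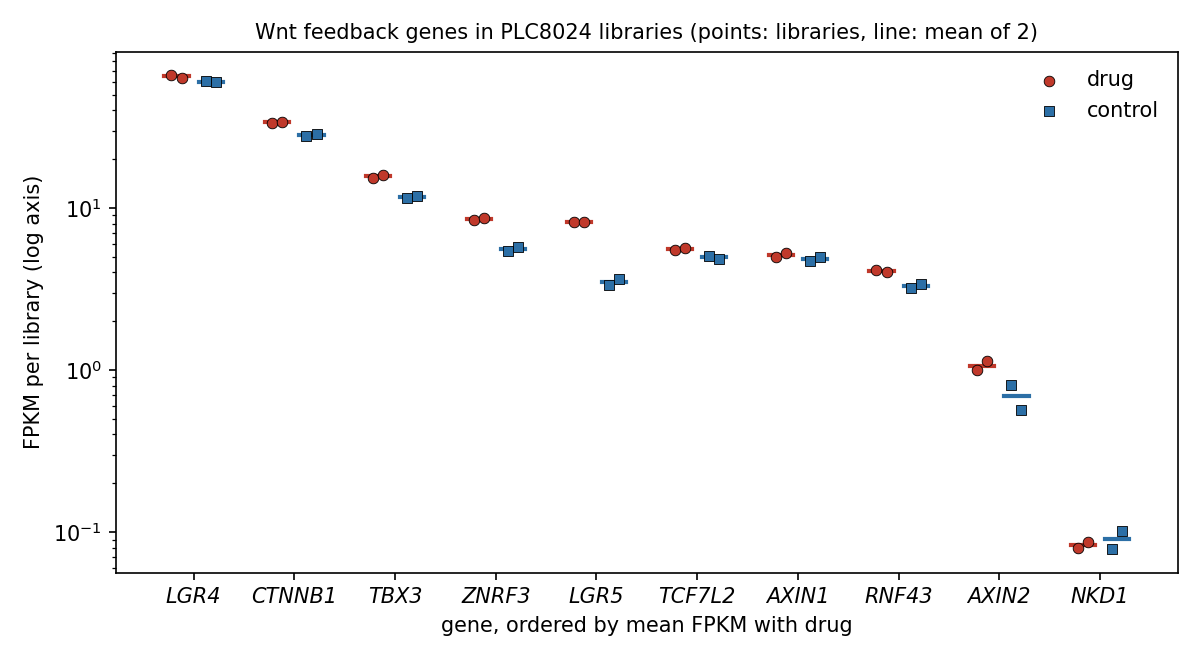
FPKM of the 10 genes in each library on a log axis, with drug libraries as red circles, control libraries as blue squares and a line at each mean of 2 libraries. LGR5 lies at 8.14 and 8.21 FPKM with drug against 3.32 and 3.65 FPKM in control, while LGR4 lies between 59.4 and 65.8 FPKM in all 4 libraries.

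By level, the order in drug libraries was LGR4, CTNNB1, TBX3, ZNRF3, LGR5, TCF7L2, AXIN1, RNF43, AXIN2 and NKD1, and no neighbours in that order overlapped. In control libraries LGR5 stood lower, behind TCF7L2 and AXIN1. There the libraries of LGR5 overlapped those of RNF43 and those of TCF7L2 overlapped those of AXIN1. LGR5 exceeded 57.2% of tested genes with drug and 33.0% in control. LGR4 exceeded 95.3% of tested genes with drug and 94.9% in control. AXIN2 was near the bottom in both groups, above 4.12% of tested genes with drug and 0.606% in control. It averaged 1.06 FPKM with drug and 0.689 FPKM in control, so it passed the filter through its drug mean alone. A low place in control follows from that filter.

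Ligands were read first. Of 19 Wnt genes 16 were in the table and WNT10B alone passed the filter, with 1.16 ± 0.0952 FPKM with drug and 1.02 ± 0.278 FPKM in control (SD, n = 2 each; limma adjusted p = 0.599). Of the others none averaged above the 0.304 FPKM of WNT7B with drug, a gene at 0.203 FPKM in control. The R-spondin genes RSPO1, RSPO3 and RSPO4, whose products are the ligands of LGR receptors, averaged 0.0175 FPKM or less in both groups. WLS, which carries Wnt proteins to the cell surface, averaged 0.0285 FPKM with drug and 0.00786 FPKM in control. PORCN, the acyltransferase that lipidates Wnt proteins, had 1.12 ± 0.0319 FPKM with drug and 1.37 ± 0.00979 FPKM in control (SD, n = 2 each) and did not pass (limma adjusted p = 0.234).

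LGR5 (ENSG00000139292) encodes a seven-pass receptor for R-spondins that marks stem cells of the gut. It lies on chromosome 12 at 71439770 to 71586310 on the plus strand of GRCh38. Its level was 8.14 and 8.21 FPKM in the drug libraries, on 1713 and 1659 reads, against 3.32 and 3.65 FPKM in the control libraries, on 495 and 737 reads. Both drug libraries lay far above both controls, and they differed from each other by less than the controls did. On the log2 scale it rose by 1.03 ± 0.05 SE (limma adjusted p = 0.00148), which placed LGR5 at rank 26 of the 11227 tested genes by log2 fold change. Its call held under all 11 alternatives tried, with adjusted p of at most 0.0181, and the authors' deposited table gives a log2 fold change of 1.19.

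TSPAN8, a tetraspanin gene, overlaps LGR5 on the opposite strand without sharing exon bases. It had 6.20 and 5.81 FPKM with drug and 6.27 and 6.06 FPKM in control (limma adjusted p = 0.669). ZFC3H1, the next tested gene, 23.2 kb beyond the end of LGR5, had 10.1 and 10.5 FPKM with drug and 10.9 and 10.8 FPKM in control (limma adjusted p = 0.270). The antisense gene AC078860.1 shares 208 exon bases with LGR5 and stayed at 0.0538 FPKM or below in every library. The library kit keeps strand, but whether reads were counted by strand is not given in the sources used here.

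LGR4 (ENSG00000205213), the close relative of LGR5 with the same ligands and a broader expression, lies on chromosome 11 at 27365961 to 27472775 on the minus strand. It had 65.8 and 63.5 FPKM with drug against 60.7 and 59.4 FPKM in control. Drug libraries were above controls without overlap, by 7.71%, and the change did not pass (log2 fold change 0.11 ± 0.03 SE, limma adjusted p = 0.0819). LGR4 remained the more abundant receptor of the pair in all 4 libraries. LGR5 made up 11.0% and 11.4% of the summed FPKM of both receptors in drug libraries, against 5.19% and 5.80% in control libraries. The ratio of LGR5 to LGR4 within a library does not depend on scaling between libraries, and its log2 value was higher with drug by 1.12. The exact two-sided permutation test gave p = 0.333, the smallest that 2 libraries against 2 can give.

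Among the other receptors FZD5 and LRP5 rose. FZD5, a Frizzled receptor gene, had 12.9 and 14.1 FPKM with drug against 10.6 and 10.6 FPKM in control (log2 fold change 0.32 ± 0.05 SE, limma adjusted p = 0.0206). LRP5, a co-receptor gene, had 32.8 and 33.9 FPKM with drug against 27.9 and 28.9 FPKM in control (0.22 ± 0.03 SE, limma adjusted p = 0.0198). The receptor list, which holds LGR4 and LGR5 too, had 15 of 19 genes in the table, LRP6 not among them. By limma 3 of the 9 tested rose (33.3%), the member LGR5 among them, and none fell, with a median of 0.00. Over all tested genes 7.78% were called higher and 6.02% lower. On recovered reads edgeR and DESeq2 each called 1 receptor gene lower. FZD1, FZD2 and FZD3 had lower means with drug without passing by limma, FZD2 at 1.70 ± 0.0275 FPKM with drug and 2.09 ± 0.0347 FPKM in control (SD, n = 2 each; limma adjusted p = 0.113). The call of FZD5 was lost when drug 2 (limma adjusted p = 0.0653), control 1 (0.0964) or control 2 (0.0926) was left out, and with no filter (0.0844). LRP5 lost its limma call whichever library was left out (adjusted p = 0.0632 to 0.0964) and with no filter (0.0727).

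ZNRF3 (ENSG00000183579) encodes a membrane ubiquitin ligase that sends Frizzled receptors to degradation. It lies on chromosome 22 at 28883592 to 29057487 on the plus strand. It had 8.47 and 8.63 FPKM with drug, on 2384 and 2334 reads, against 5.45 and 5.71 FPKM in control, on 1086 and 1540 reads. The groups stood farther apart than the libraries within either of them. ZNRF3 rose by 0.54 ± 0.04 SE on the log2 scale (limma adjusted p = 0.00445), rank 145 of the tested genes. The call held under all 11 alternatives, with adjusted p of at most 0.0365. Its flanking tested genes were the unfolded protein response factor gene XBP1, with means of 175 FPKM with drug and 177 FPKM in control, and the Wnt inhibitor gene KREMEN1, with 2.52 FPKM with drug and 2.82 FPKM in control (limma adjusted p = 0.693 and 0.335).

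RNF43 (ENSG00000108375), the second ligase of this kind and a tumour suppressor gene in several epithelial cancers, lies on chromosome 17 at 58352500 to 58417595 on the minus strand. Its level was 4.13 and 4.02 FPKM with drug against 3.22 and 3.38 FPKM in control. All 4 values kept the groups apart, but the change was smaller than that of ZNRF3 (log2 fold change 0.24 ± 0.05 SE, limma adjusted p = 0.0446). RNF43 lost its limma call whichever library was left out (adjusted p = 0.115 to 0.171), with no filter on low values (0.140), with the replicate number as a block (0.0852), with TMM-scaled FPKM (0.0651) and with DESeq2 on recovered reads (0.0586), and kept it with edgeR on recovered reads (0.0348). The authors' deposited table gives it an adjusted p of 0.0599. The ratio of ZNRF3 to RNF43 was 2.05 and 2.15 in drug libraries against 1.69 and 1.69 in control libraries (exact two-sided permutation p = 0.333, the smallest possible). On the same strand AC004687.2 shares 4326 exon bases with RNF43, at 0.0298 FPKM or below, and TSPOAP1-AS1 on the opposite strand shares 1521, at 0.191 to 0.323 FPKM. SUPT4H1, on the same strand, shares 143 exon bases and was not analysed here, so how reads were shared between them is uncertain. The gene length implied by the reads and FPKM of RNF43 was 0.843 of its annotated exon length. Its level beside other genes and its ratio to ZNRF3 depend on the length used.

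The DNA just upstream of the start of RNF43 is shown with that of LGR4 and AXIN1, 2 members that did not pass, because of the called members RNF43 alone had a matched RefSeq promoter window with bases outside annotated exons. RefSeq promoter windows (GRCh38.p14) were matched for 5 of the 10 members. LGR5, ZNRF3, AXIN2, TBX3 and NKD1 were not matched. Each line gives upstream bases 5′ to 3′ on the gene's strand, with CG dinucleotides in capitals.
RNF43, chr17:58417596-58417784, minus strand: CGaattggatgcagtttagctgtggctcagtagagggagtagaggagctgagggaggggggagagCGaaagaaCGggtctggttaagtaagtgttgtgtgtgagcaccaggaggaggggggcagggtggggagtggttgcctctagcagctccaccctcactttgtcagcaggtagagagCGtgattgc
LGR4, chr11:27472791-27473040, minus strand: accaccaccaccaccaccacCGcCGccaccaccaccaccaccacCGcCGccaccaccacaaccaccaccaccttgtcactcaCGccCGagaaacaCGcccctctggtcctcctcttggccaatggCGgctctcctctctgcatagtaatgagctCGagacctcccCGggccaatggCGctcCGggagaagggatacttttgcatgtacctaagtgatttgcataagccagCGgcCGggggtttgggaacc
AXIN1, chr16:352724-352973, minus strand: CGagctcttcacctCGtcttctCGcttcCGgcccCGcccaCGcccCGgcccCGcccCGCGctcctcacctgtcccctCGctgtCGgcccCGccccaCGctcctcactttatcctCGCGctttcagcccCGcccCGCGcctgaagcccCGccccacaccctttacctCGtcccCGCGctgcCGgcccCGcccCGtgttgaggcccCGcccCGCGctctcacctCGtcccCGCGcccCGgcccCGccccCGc
The RNF43 stretch of 189 bases holds 4 CG dinucleotides, against 14 in 250 bases for LGR4 and 35 in 250 bases for AXIN1. The median of all 35116 windows of 250 upstream bases is 11. Short words that TCF and LEF factors bind were searched on both strands: the word AACAAAG first, the related word ATCAAAG next, then the word TACAAAG and last the word TTCAAAG. At least 1 of them occurs in 11.96% of all windows. They were not found in the 250-base windows of RNF43, LGR4, AXIN1 and CTNNB1 and occur once in 1 of 3 windows of TCF7L2.

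Of the other membrane and secreted inhibitors none passed. With ZNRF3 and RNF43 the list had 6 tested genes of 15 in the table, with a median of 0.07. Of the 6, those 2 members rose (33.3%, beside 7.78% of all tested genes) and none fell. DKK1, a secreted antagonist of LRP co-receptors and itself a Wnt target, was the most abundant of them, at 21.4 ± 0.291 FPKM with drug and 21.9 ± 1.01 FPKM in control (SD, n = 2 each; limma adjusted p = 0.694). NOTUM, a secreted Wnt deacylase and a target of the pathway in liver, averaged 0.0653 FPKM with drug and 0.145 FPKM in control, below the filter. Those values rest on 7 and 8 drug reads and 10 and 19 control reads. Another cited target below the filter, MMP7, was on the other side, at 0.515 FPKM with drug and 0.165 FPKM in control. It had 40 and 54 drug reads and 10 and 16 control reads.

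**Figure D2:**
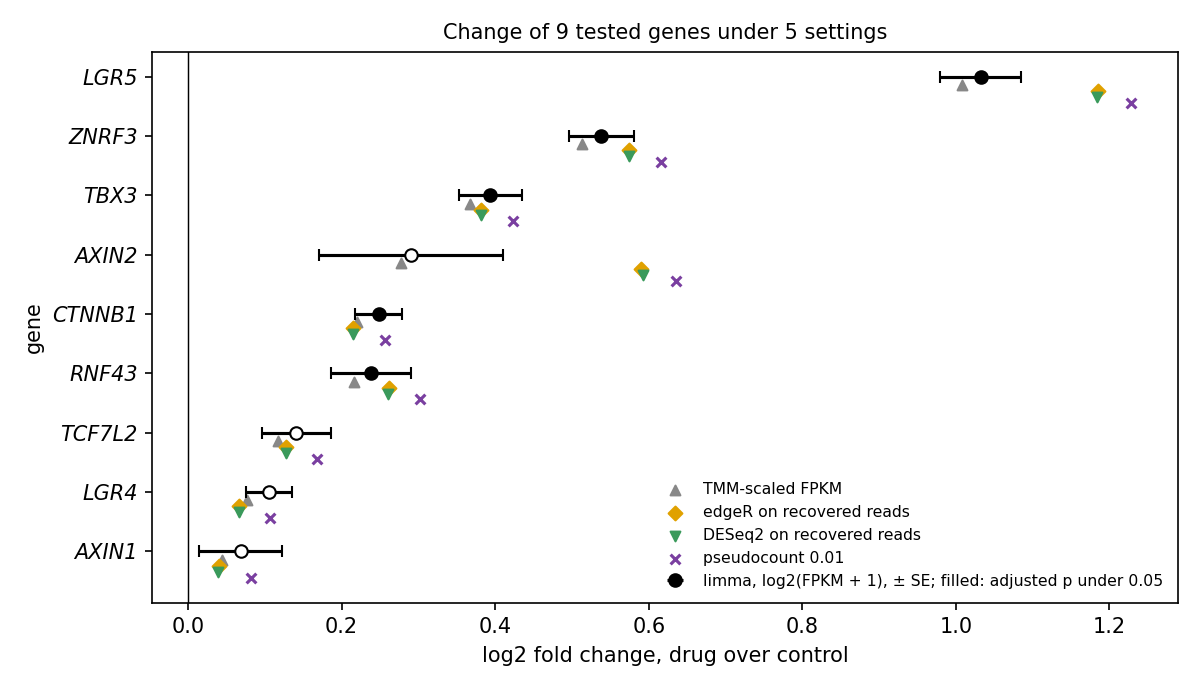
Log2 fold change of drug over control for the 9 tested members. Black circles are the limma values with their standard errors, filled where the adjusted p is under 0.05, and the other marks are 4 alternatives. LGR5 lies at 1.01 or above in each, and AXIN2 moves between 0.28 and 0.64 over the 5 settings drawn, which do not include the fits with a library left out.

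AXIN2 (ENSG00000168646) encodes an axin whose transcription Wnt signalling switches on. It lies on chromosome 17 at 65528563 to 65561647 on the minus strand. It had 0.994 and 1.13 FPKM with drug, on 208 and 227 reads, against 0.809 and 0.568 FPKM in control, on 120 and 114 reads. Drug libraries lay above both controls, and the controls were far apart: counting alone gives an SD of 9.13% and 9.37% at those control reads. The log2 fold change was 0.29 ± 0.12 SE and did not pass (limma adjusted p = 0.166). It was 0.39 without control 1 and 0.19 without control 2, and AXIN2 failed the filter without drug 2. It did not pass with edgeR (adjusted p = 0.0757) or DESeq2 (0.0749) on recovered reads either, where it came to 0.59. AC004805.1, on the same strand, shares 1316 exon bases with AXIN2 and was not analysed here, so how reads were shared between them is uncertain. The authors' deposited table gives 0.60 with an adjusted p of 0.119. 

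AXIN1 (ENSG00000103126), the constitutive axin gene, is found on chromosome 16 at 287440 to 352673 on the minus strand. It had 4.97 and 5.29 FPKM with drug against 4.68 and 5.01 FPKM in control, so the groups overlapped (log2 fold change 0.07 ± 0.05 SE, limma adjusted p = 0.427). Within libraries, the ratio of AXIN2 to AXIN1 was 0.200 and 0.213 in drug libraries against 0.173 and 0.113 in control libraries (exact two-sided permutation p = 0.333, the smallest possible). Its log2 difference of 0.56 became 0.86 without control 1 and 0.26 without control 2. NKD1 (ENSG00000140807), a feedback inhibitor that binds Dishevelled, lies on chromosome 16 at 50548330 to 50649249 on the plus strand. It had 0.0801 and 0.0864 FPKM with drug against 0.0788 and 0.101 FPKM in control. Those values rest on 56 and 58 drug reads and 39 and 68 control reads, and the groups overlapped.

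**Figure D3:**
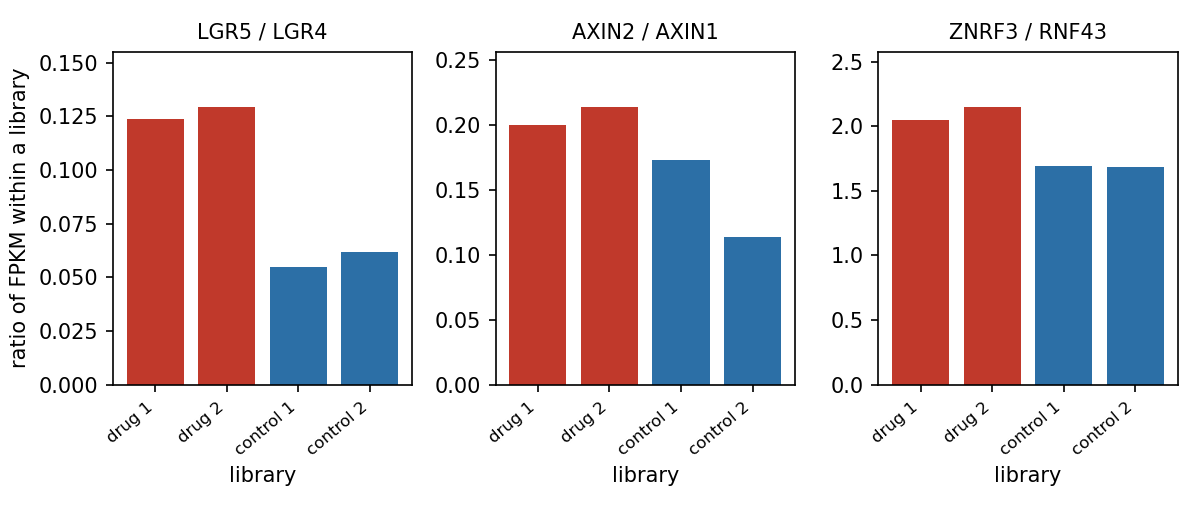
Ratio of FPKM between relatives within each of the 4 libraries, with drug libraries in red and control libraries in blue. In each pair both drug bars stand above both control bars, and the 3 panels have axes of their own. On the log2 scale the difference in means was 1.12 for LGR5 over LGR4, 0.56 for AXIN2 over AXIN1 and 0.31 for ZNRF3 over RNF43.

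The destruction complex and Dishevelled list, with AXIN1 and AXIN2 in it, had a median log2 fold change of 0.04. Of its 23 tested genes RNF146 alone passed (4.35%), beside 7.78% of all tested genes called higher and 6.02% lower. RNF146, a ubiquitin ligase that promotes axin turnover, had 9.84 and 10.5 FPKM with drug against 8.78 and 8.80 FPKM in control (log2 fold change 0.19 ± 0.04 SE, limma adjusted p just under the threshold at 0.04998). RNF146 kept its call with the other pseudocounts alone. It lost it whichever library was left out (limma adjusted p = 0.0832 to 0.178), with no filter (0.138), the replicate block (0.0771) and TMM-scaled FPKM (0.0596), and on recovered reads with edgeR (0.0786) and DESeq2 (0.212). The scaffold gene APC had 4.78 ± 0.103 FPKM with drug and 4.65 ± 0.0825 FPKM in control, and the kinase gene GSK3B had 4.53 ± 0.134 FPKM with drug and 4.37 ± 0.0051 FPKM in control (SD, n = 2 each; limma adjusted p = 0.662 and 0.581).

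CTNNB1 (ENSG00000168036) encodes beta-catenin, the pathway's effector, and lies on chromosome 3 at 41194741 to 41260096 on the plus strand. It had 33.4 and 33.9 FPKM with drug, on 15814 and 15402 reads, against 27.7 and 28.6 FPKM in control, on 9284 and 12999 reads. The groups did not overlap, and the rise was small and tight (log2 fold change 0.25 ± 0.03 SE, limma adjusted p = 0.0121). CTNNB1 was no longer called when drug 1 (limma adjusted p = 0.0578), drug 2 (0.0683) or control 1 (0.0637) was left out, and kept its call with edgeR and DESeq2 on recovered reads. ULK4 overlaps it on the opposite strand without shared exon bases and had 1.73 and 1.52 FPKM with drug against 1.73 and 1.89 FPKM in control (limma adjusted p = 0.450).

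TCF7L2 (ENSG00000148737), a TCF factor gene active in liver and gut, lies on chromosome 10 at 112950250 to 113167678 on the plus strand. It had 5.49 and 5.65 FPKM with drug against 5.05 and 4.87 FPKM in control. Drug libraries were above both controls by a small margin that did not pass (log2 fold change 0.14 ± 0.04 SE, limma adjusted p = 0.1001). Among the 16 tested nuclear partners CTNNB1 and BCL9L rose by limma and none fell, with a median of 0.07. That is 12.5% of the list called higher, beside 7.78% of all tested genes called higher and 6.02% lower. DESeq2 on recovered reads called 1 of the 16 partners lower. BCL9L, a beta-catenin coactivator gene, had 8.33 and 9.16 FPKM with drug against 6.94 and 6.86 FPKM in control (0.30 ± 0.05 SE, limma adjusted p = 0.0278). The call of BCL9L ended when drug 2 (limma adjusted p = 0.0918), control 1 (0.113) or control 2 (0.113) was left out, and with the replicate block (0.0532) or no filter (0.104). LEF1, a TCF relative and Wnt target, had 6.69 ± 0.204 FPKM with drug and 6.10 ± 0.164 FPKM in control (SD, n = 2 each; limma adjusted p = 0.147).

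TBX3 (ENSG00000135111), a T-box repressor gene that beta-catenin drives in liver tumours, lies on chromosome 12 at 114670254 to 114684164 on the minus strand. It had 15.2 and 16.0 FPKM with drug, on 3650 and 3700 reads, against 11.5 and 11.8 FPKM in control, on 1948 and 2726 reads. The groups stood clear of each other (log2 fold change 0.39 ± 0.04 SE, limma adjusted p = 0.00820). TBX3 lost its limma call without control 1 alone (adjusted p = 0.0542). RBM19 and MED13L, the nearest tested genes on either side, lie 704 kb and 1270 kb away and did not pass (limma adjusted p = 0.0766 and 0.0799). Of the nearest tested genes on either side of the 10 members, 2 passed, both lower with drug: APOH, 650 kb from AXIN2 (limma adjusted p = 0.0231), and HABP2, 383 kb from TCF7L2 (0.0425). Over all tested genes 13.8% were called in either direction.

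A list of 30 commonly cited Wnt targets, 6 of them members, was read next. Like the other lists, this list was written with earlier results of these data known. It had 28 genes in the table and 19 tested, of which 8 rose and 1 fell, with a median log2 fold change of 0.19. Without the members 4 of 14 rose (28.6%) and 1 fell (7.14%), with a median of 0.11, beside 7.78% of all tested genes called higher and 6.02% called lower. BMP4, a secreted growth factor gene, had 14.5 and 14.4 FPKM with drug against 8.82 and 8.68 FPKM in control (log2 fold change 0.66 ± 0.03 SE, limma adjusted p = 0.00148). JAG1, a Notch ligand gene, had 11.3 and 11.6 FPKM with drug against 8.05 and 8.31 FPKM in control (0.44 ± 0.04 SE, limma adjusted p = 0.00567). Both kept their calls with each library left out. SOX4, a transcription factor gene, had 18.9 and 19.2 FPKM with drug against 16.0 and 16.2 FPKM in control (0.23 ± 0.03 SE, limma adjusted p = 0.0150). TROAP, a spindle protein gene, had 11.8 and 11.6 FPKM with drug against 10.3 and 9.90 FPKM in control (0.19 ± 0.04 SE, limma adjusted p = 0.0342).

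CCND1, the cyclin D1 gene and the faller of that list, had 36.4 and 37.1 FPKM with drug against 42.9 and 43.4 FPKM in control (log2 fold change -0.23 ± 0.03 SE, limma adjusted p = 0.0113). SOX4, TROAP and CCND1 lost their limma calls whichever library was left out (adjusted p = 0.0648 to 0.0822, 0.0932 to 0.123 and 0.0537 to 0.0629). TROAP was also not called with the replicate block (limma adjusted p = 0.0594), TMM-scaled FPKM (0.0586), no filter (0.0947) or DESeq2 on recovered reads (0.122). SP5, a direct target gene of beta-catenin, had 1.63 and 1.56 FPKM with drug against 1.17 and 1.15 FPKM in control and did not pass (limma adjusted p = 0.0885). FGF19 had 0.527 ± 0.0833 FPKM with drug and 1.02 ± 0.0784 FPKM in control (SD, n = 2 each; limma adjusted p = 0.0729). Genes cited as targets thus stood on both sides of their control levels.

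Over the 6 pathway lists and the target list together, 119 of 136 genes were in the table and 69 were tested, of which 13 rose and 1 fell. Without the members 8 of 60 rose (13.3%) and 1 fell (1.67%), beside 7.78% and 6.02% of all tested genes. Their median log2 change, 0.04, was that of all genes. With 1 library left out, 7 pathway genes were called higher without drug 1, 5 without drug 2, 4 without control 1 and 6 without control 2, and none lower. Members called higher were then 3, 3, 2 and 4 in the same order.

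**Figure D4:**
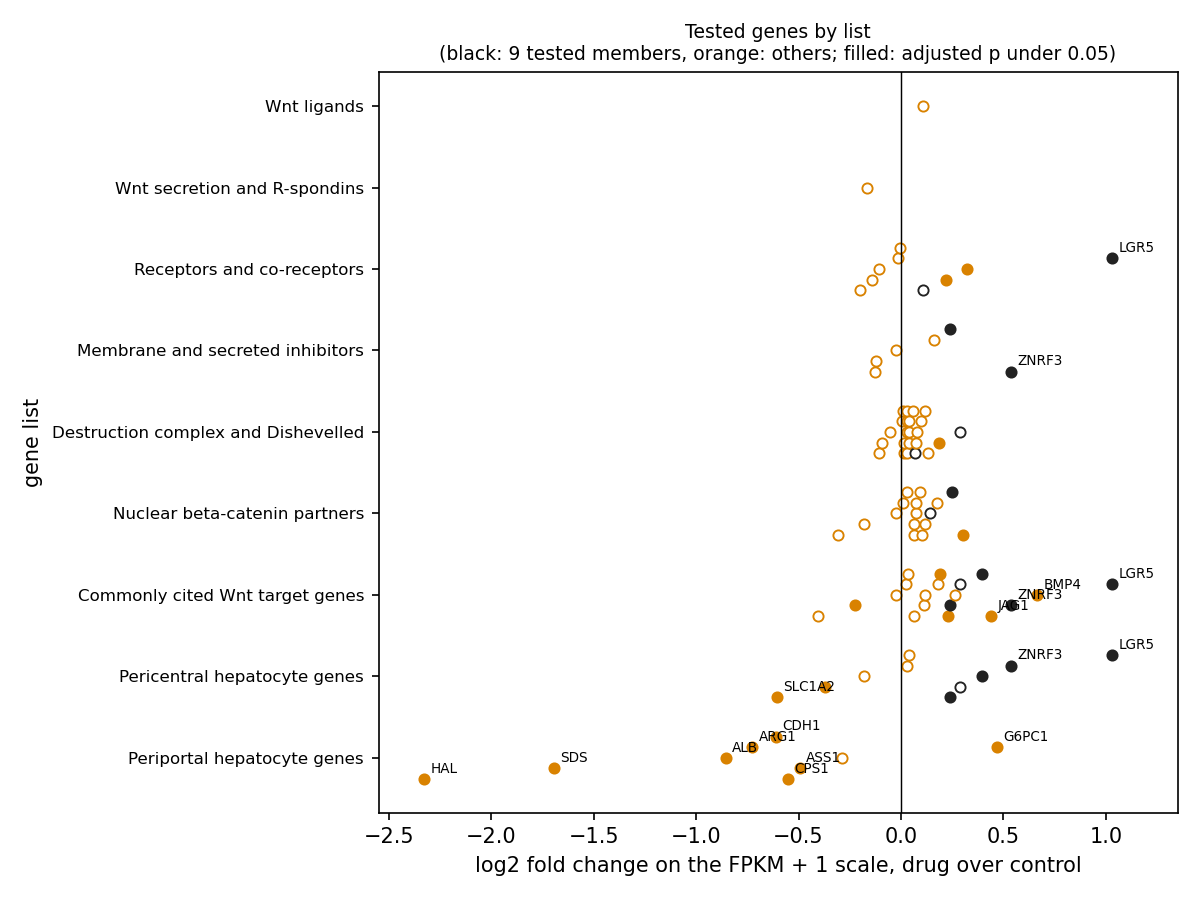
Log2 fold change (FPKM + 1 scale, drug over control) of every tested gene by list, with the 9 tested members in black, other list genes in orange and symbols filled where the limma adjusted p is under 0.05. LGR5, at 1.03, lies farthest to the right, and HAL, at -2.33 in the periportal list, farthest to the left.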

How the data were processed

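Per the labels, total RNA was isolated by trizol and made into cDNA libraries with Illumina's TruSeq stranded protocol. Per the submitters' processing notes, bcl2fastq and hg38 were used. The aligner and the counter, with their annotation, were not given in the sources used here. Values in the deposited table are FPKM per library, a unit read from the values: implied lengths had a median ratio of 1.00 to GENCODE 29 exon lengths. The authors also deposited group means of normalised reads, a signal per the file headers, and their own log2 fold changes and p-values with adjusted p-values. No gene of the table was at 0 in both control libraries, so genes read with drug alone were not analysed here.

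Combining FPKM with group means gave back each library's reads (100% of values lay within 0.1 read of a whole number). Genes averaging 1 FPKM or more in either group were fitted with limma 3.58.1 (trend) on log2(FPKM + 1). The alternatives tried were a pseudocount of 0.1 or 0.01, dropping the filter, a replicate block, TMM-scaled FPKM, edgeR 4.0.16 and DESeq2 1.42.0 on recovered reads, and each library left out; with 1 library in a group, its spread is taken to be that of the other. The limma fit and the edgeR and DESeq2 fits were tested on simulated data, and the other alternatives were not. There limma recovered 8% of genes changed 1.25-fold, 50% of those changed 1.5-fold and 72% of those changed 2-fold. At 1.25-fold edgeR recovered 44% and DESeq2 42%. Unchanged genes were 8 of 119 called by limma, 21 of 176 by edgeR and 8 of 159 by DESeq2. A small change that did not pass is therefore not shown to be absent. Coordinates are from GENCODE 29 (GRCh38), matched by gene identifier.

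The members and lists were chosen with earlier results of these data known. Besides the members, up to 4 called genes per list and direction, the 5 tested genes closest to LGR5, ALB and AFP were named. Other genes given with values (WNT10B, WNT7B, RSPO1, RSPO3, RSPO4, WLS, PORCN, FZD2, DKK1, NOTUM, MMP7, APC, GSK3B, LEF1, SP5, FGF19, GLUL, the markers APOB, APOA1, APOA2, APOH, FGB, GPC3, HNF4A, SERPINA1, TF, TTR and PECAM1, and overlapping or flanking genes) were picked after their values were seen. Fits ran in R 4.3.3 and tables and figures in Python 3.11.15.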

Additional observations from a re-analysis of the deposited data

How the results depend on the processing

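The genes followed here are the members, the called list genes, the 5 closest to LGR5, ALB and AFP, and 25 of them were called. None of the 25 turned its direction under any of the 11 alternatives. All 11 alternatives called 10 of the 25, LGR5 and ZNRF3 among them. Other genes given with values, such as FGB, GPC3, APOA2 and HNF4A, are not in this count. With no filter on low values 10 of the 25 lost their call. Over all genes 873 were called higher and 676 lower. Higher calls were 170 with no filter on low values, 474 with the replicate block, 549 with TMM-scaled FPKM and 115 to 221 with 1 library left out. Lower calls were 214 with no filter, 1233 with edgeR, 1109 with DESeq2 and 188 to 274 with 1 library left out. With TMM-scaled FPKM 724 genes were lower, so that higher calls no longer outnumbered lower ones. The cause was not tested. Of the 13 Wnt pathway genes called higher, counts were 7 with no filter and 4 to 7 with 1 library left out. Lower calls among them, 1 by limma, were 3 with edgeR, 3 with DESeq2 and 0 to 0 with 1 library left out. The 5 members called higher became 2 to 4 with 1 library left out. Log2 differences of the member ratios kept their sign: with 1 library left out they were 1.04 to 1.21 for LGR5 over LGR4, 0.26 to 0.86 for AXIN2 over AXIN1 and 0.28 to 0.35 for ZNRF3 over RNF43. AXIN2 failed the filter without drug 2 and NKD1 had a fit only with no filter. The replicate number was shared between groups, but replicate 1 minus replicate 2 correlated at 0.03 across genes between drug and control. The values thus show no shift shared by number, and whether the numbers pair the libraries is not labelled. With the replicate block 474 genes were higher, and members called higher were 4. AXIN2 had 114 to 227 reads a library, which gives a counting SD of 9.13% and 9.37% in the control libraries.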

Other observations

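Hepatocyte genes that follow Wnt activity along the liver lobule were read as well. Of 10 tested pericentral genes 4 rose and 2 fell, beside 7.78% of all tested genes called higher and 6.02% called lower. All 4 that rose were members (LGR5, ZNRF3, TBX3 and RNF43), and none of the 5 other tested genes rose. The 2 that fell were OAT, the ornithine aminotransferase gene, with 117 and 112 FPKM with drug against 146 and 150 FPKM in control (limma adjusted p = 0.00534), and the glutamate transporter gene SLC1A2, with 1.08 and 0.996 FPKM with drug against 2.06 and 2.15 FPKM in control (limma adjusted p = 0.0130). SLC1A2 lost its limma call whichever library was left out (adjusted p = 0.0528 to 0.0693) and with no filter (0.0710). GLUL, the glutamine synthetase gene that marks the innermost pericentral cells, had 16.1 ± 0.0017 FPKM with drug and 15.7 ± 0.0483 FPKM in control (SD, n = 2 each; limma adjusted p = 0.520). Of 9 tested periportal genes 7 fell and 1 rose, with a median log2 fold change of -0.61, beside 6.02% of all tested genes called lower. HAL, the histidine ammonia-lyase gene, had 2.37 and 2.62 FPKM with drug against 16.9 and 16.1 FPKM in control. SDS, the serine dehydratase gene, had 0.677 and 0.765 FPKM with drug against 4.89 and 4.27 FPKM in control. ALB fell as well, and ARG1, the arginase gene, had 0.582 and 0.361 FPKM with drug against 1.56 and 1.30 FPKM in control. The glucose-6-phosphatase gene G6PC1 was the riser, with 17.9 and 16.4 FPKM with drug against 11.8 and 12.4 FPKM in control. By limma the adjusted p was 0.000523 for HAL, 0.00148 for SDS, 0.00391 for ALB, 0.0277 for ARG1 and 0.00916 for G6PC1. ARG1 was not called once any library was left out (adjusted p = 0.0621 to 0.113) or with no filter (0.104), and G6PC1 without control 1 (0.0594) or control 2 (0.0506) or with no filter (0.0526).

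The 5 tested genes whose profile over the 4 libraries lay closest to that of LGR5, by Euclidean distance of log2(FPKM + 1) from the control mean, were GSTP1, a gene without a symbol in the table, S100A3, LOXL4 and BTN2A1. GSTP1, the pi-class glutathione transferase gene, was closest at a distance of 0.0615 and had 1577 and 1574 FPKM with drug against 763 and 774 FPKM in control. LOXL4, a lysyl oxidase relative, had 17.4 and 17.3 FPKM with drug against 6.96 and 7.62 FPKM in control. S100A3 and BTN2A1 averaged 1.98 and 1.18 FPKM with drug, against 0.459 and 0.158 FPKM in control. The gene without a symbol averaged 1.78 FPKM with drug and 0.322 FPKM in control. These low genes passed the filter through their drug mean alone, and the FPKM + 1 scale understates their changes. On recovered reads the edgeR log2 fold change was 2.02 for S100A3 and 2.88 for BTN2A1, against 1.19 for LGR5. It was 0.99 for GSTP1 and 1.21 for LOXL4. The closeness of S100A3 and BTN2A1 to LGR5 therefore depends on that scale. The call of S100A3 ended when drug 1 (limma adjusted p = 0.0666) or drug 2 (0.0531) was left out or no filter was used (0.0639), and that of BTN2A1 whichever library was left out (0.0513 to 0.0922).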
